A study of Mus musculus with 4 samples.

Results

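The integrin and laminin genes of the mouse were followed across tumour, tumour margin, vessels-rich and brain tissue, and between hydrogel-treated and non-treated animals. The members were all features with counts, and with an identifier not marked as deprecated, whose symbol named an integrin alpha chain, an integrin beta chain or a laminin alpha, beta or gamma chain. This rule found 36 genes among 20457 such features, of which 11 encode laminin chains and 25 encode integrin chains (17 alpha and 8 beta). All 36 had counts, from 130 UMIs for Itgae to 24650 UMIs for Itgb1 over the kept tissue. How many probes read each gene is unknown here, so levels were compared within a gene and never between genes.

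Laminins are large secreted glycoproteins built from 1 alpha, 1 beta and 1 gamma chain, and they form the sheet-like scaffold of basement membranes together with type IV collagen, nidogens and perlecan. Integrins are cell surface receptors made of 1 alpha and 1 beta chain, which link such matrices, or ligands on other cells, to the actin skeleton. In the brain, laminins line the blood vessels and the surface under the meninges, microglia and infiltrating leukocytes carry integrins of the beta 2 family, and gliomas are known to use integrins when they grow along vessels and invade.

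Sections came from mouse brains, fixed in formalin at day 11 after a tumour was implanted and then cut out, and RNA was read on arrays of barcoded spots by pairs of hybridized probes. The group labelled TREAT received the hydrogel and the group labelled Vehicle did not, and both groups had undergone implantation and resection. Each group had 2 capture areas, called Vehicle 1+4, Vehicle 2+3, TREAT 1+4 and TREAT 2+3 after their labels. The design names 4 animals in total, and the sources used here do not say which animal lies on which area, nor the strain, the tumour line or the composition of the hydrogel. A test across 2 areas a group therefore measures the spread between these capture areas only.

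After spots with under 500 UMIs were left out, 3157, 3485, 3349 and 3012 spots were kept in Vehicle 1+4, Vehicle 2+3, TREAT 1+4 and TREAT 2+3, with 34196413, 45959487, 56150197 and 51081090 UMIs (unique molecular identifiers, 1 per captured probe molecule). The median per spot was 7381 and 8380 UMIs in the Vehicle areas and 14992 and 12248 UMIs in the TREAT areas. A total of 1825 spot barcodes lay under tissue in all 4 areas, since the arrays share one layout. A spot is a small region that can hold several cells, so in what follows fewer cells of a type and less RNA per cell cannot be told apart.

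Regions were drawn by clustering the spots of all areas together, with the 36 members and 3 lists of related genes left out of the clustering. Genes that vary with the members were still used, so the regional p-values describe regions drawn on the same spots. The tumour consisted of 2 clusters. Cluster 0, led by histone genes, made up 100% and 99.3% of the tumour spots of the Vehicle areas, and cluster 4, led by Tubb6, Col9a1 and the interferon-induced Igtp, made up 93.4% and 99.7% of those of the TREAT areas. Cluster 4 had 2 proliferation markers among its 50 leading genes, short of the 3 that the rule for tumour asked for, and was counted as tumour by a criterion added after seeing the data, since its summed level of 25 proliferation genes was 3680 CPM against 3820 CPM in cluster 0. Tumour spots within 2 array steps of other tissue, the collagen-rich region named below included, formed the margin and the rest the interior. A cluster led by C3, Apod and Serpina3n is called the C3-rich region, and one led by immunoglobulin and collagen genes (Igkc, Col3a1) the collagen-rich region. The collagen-rich cluster had a proliferation level of 3453 CPM and was kept apart from the tumour by its leading genes. Brain spots within 2 steps of tumour formed a brain ring. Of the remaining far brain, the 10% of spots with the highest share of endothelial transcripts in each area were called vessels-rich.

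**Figure D1:**
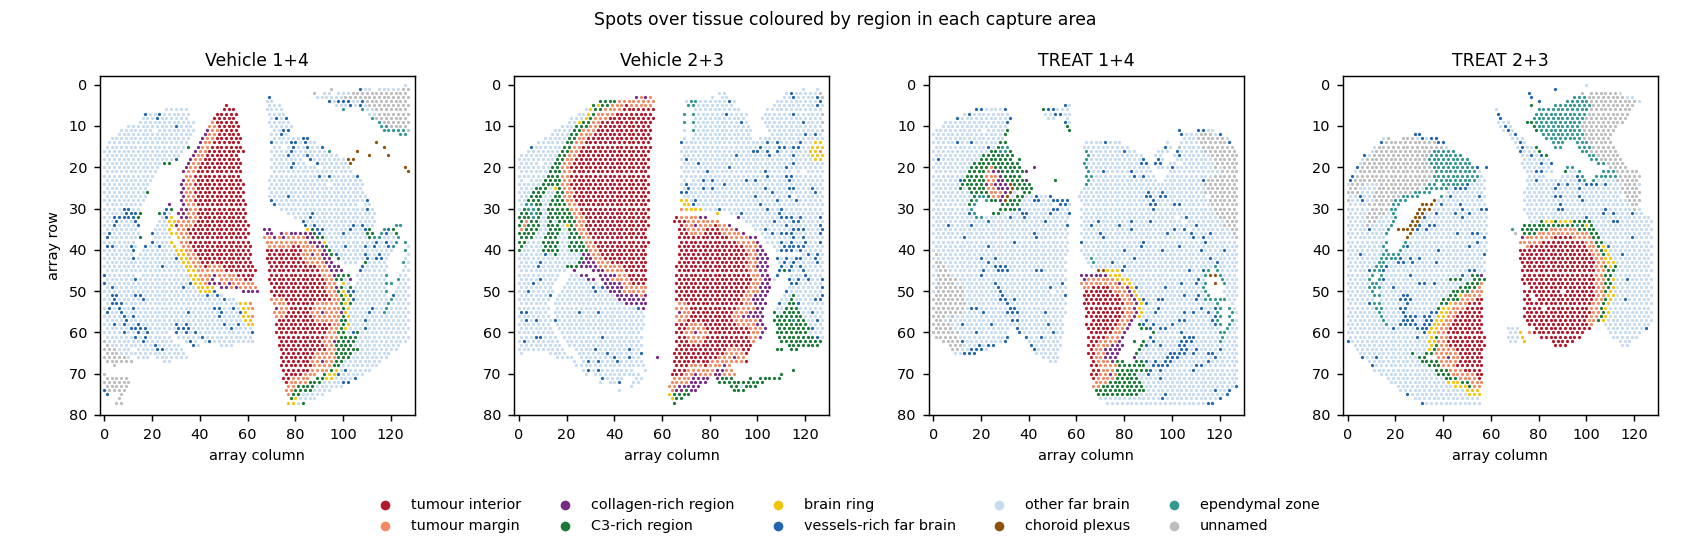
Position of every kept spot on the 4 capture areas, by array column (x axis) and array row (y axis), coloured by region. Tumour spots numbered 911 and 1266 in the Vehicle areas and 198 and 595 in the TREAT areas, and the collagen-rich region held only 3 spots in TREAT 2+3.

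By mean level over areas, levels being CPM (UMIs of the gene scaled to an equal total in every region), the members were highest in different places. The C3-rich region held the highest level of 10 members (Itga6, Itgad, Itgae, Itgal, Itgam, Itgav, Itgb2, Itgb5, Itgb6 and Lamb2), and the collagen-rich region that of 10 others (Itga1, Itga2, Itga4, Itga5, Itgb1, Itgb3, Itgb7, Lama4, Lamb1 and Lamc1). Vessels-rich far brain was highest for 6 (Itga11, Itga3, Itga7, Lama1, Lama2 and Lamc3), and a zone led by genes of ependymal cells, which line the ventricles, for 5 (Itga10, Itga8, Itgb4, Itgb8 and Lamb3). Of 25 proliferation markers 24 were higher in the tumour interior than in far brain (median log2 fold 4.24), and all 10 astrocyte and 11 oligodendrocyte markers were lower there. Clusters had been named tumour or brain partly by the proliferation and oligodendrocyte lists, so those 2 outcomes were largely set beforehand. The tumour interior was highest for Lama5 and Itga2b, and the brain ring for Itga9 and Lama3, which were not among the members called in the ring. The means for the collagen-rich region leave out TREAT 2+3, those for the brain ring TREAT 1+4 and those for the ependymal zone Vehicle 2+3, with 17 spots. In Vehicle 1+4 the ependymal zone held only 35 spots with 77483 UMIs. Low ependymal means, such as 6.77 CPM for Itga10 and 3.14 CPM for Lamb3, therefore rest on few UMIs in that area. The brain ring of Vehicle 2+3 held 175478 UMIs, so 9.85 CPM for Lama3 in the ring rests on few UMIs too. So do low means elsewhere, such as 3.26 CPM for Itgad in the C3-rich region and 3.56 CPM for Itga11 in vessels-rich far brain. Over the 3 areas with a collagen-rich region, 9 of its 10 members were still highest there against the regions present in all areas, the exception being Itgb3, with 18.07 CPM there and 18.12 CPM in the interior. Neighbours in this order were not tested against each other as such, and some were close. Lamb1, for example, had 124 CPM in the collagen-rich region and 123 CPM in the tumour margin over these areas. For Lama2 the vessels-rich far brain had 17.7 CPM and the ependymal zone 17.0 CPM.

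**Figure D2:**
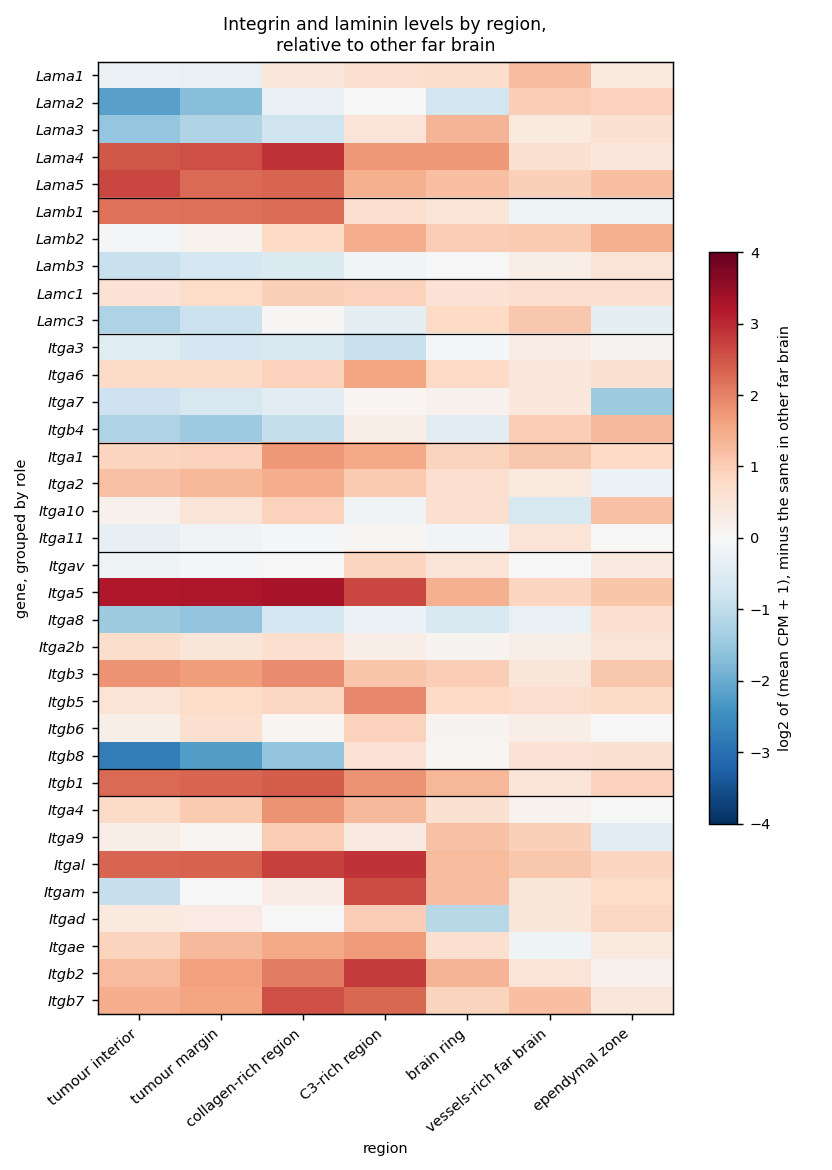
Heat map of 35 members (rows, grouped by role) in the regions (columns), as log2 of mean CPM + 1 minus the same value in other far brain. Lama4, Lama5, Lamb1, Itga5 and Itgb1 stand above brain in tumour, margin and collagen-rich region, while Lama2 and Itgb8 stand below it in tumour.

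Tumour and brain carried different sets of laminin chains and integrins. Against far brain, the tumour interior had higher levels of 16 members and lower levels of 12 of the 35 tested, while 31.6% of all 18709 features were higher and 35.1% lower, so the members' share on the lower side was close to the background and that on the higher side above it. The median log2 fold was 0.18 over the members and 0.02 over all features. Every one of these 28 calls had the same direction in 4 of 4 areas. Itgae had too few counts to be tested, and Lamb2, Itgav, Lama1, Itgad, Itgb6, Itga10 and Itga9 did not pass. Tests are edgeR quasi-likelihood tests on UMIs summed per area and region. The plain comparisons of TREAT with Vehicle had no block, and in all others the area was a block. P-values are adjusted over all features, a call is an adjusted p under 0.05, and ± after a log2 fold gives its approximate standard error.

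Among laminin alpha chains, Lama4 and Lama5, the chains of endothelial basement membranes, were higher in tumour, and Lama2 and Lama3 were lower. Lama5 had 88.0, 73.9, 51.9 and 52.8 CPM in the tumour interior of Vehicle 1+4, Vehicle 2+3, TREAT 1+4 and TREAT 2+3, the order used throughout, and 9.96, 10.8, 9.81 and 10.1 CPM in far brain. The lowest tumour value thus lay far above the highest brain value, at a log2 fold of 2.50 ± 0.18 (5.65-fold, edgeR adjusted p = 3.39e-06). Lama4 had 29.2, 23.7, 21.6 and 31.1 CPM in tumour against 5.34, 3.68, 3.90 and 3.27 CPM in brain (log2 2.54 ± 0.17, 5.83-fold, edgeR adjusted p = 2.02e-06). Lama2, the alpha chain of muscle and of glial and vascular basement membranes, ran the other way, with 0.664, 0.700, 0.926 and 2.16 CPM in tumour against 9.61, 9.11, 9.47 and 8.25 CPM in brain (log2 -3.24 ± 0.33, edgeR adjusted p = 3.17e-05). Lama3 had 0.0738, 0.262, 0.617 and 0.802 CPM in tumour against 3.83, 2.33, 3.57 and 3.43 CPM in brain (log2 -3.16 ± 0.43, edgeR adjusted p = 0.000174). For both chains the areas of the tumour and of the brain did not overlap.

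Of the beta chains, Lamb1 was the one that rose. It had 145, 120, 102 and 109 CPM in tumour against 24.5, 33.9, 20.4 and 21.8 CPM in brain (log2 2.08 ± 0.14, 4.23-fold, edgeR adjusted p = 1.85e-06). Lamb2 did not pass (log2 -0.34 ± 0.14, edgeR adjusted p = 0.0633) and Lamb3, found mainly in epithelial laminins, was lower (log2 -1.61 ± 0.34). Lamc1, the gamma chain of most laminins, rose by little (log2 0.34 ± 0.12, edgeR adjusted p = 0.0378), and Lamc3 was lower (log2 -1.97 ± 0.35). The chains higher in tumour were thus Lama4, Lama5, Lamb1 and Lamc1.

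Among integrins, Itgb1, the beta chain shared by most matrix receptors, had 207, 190, 290 and 238 CPM in tumour against 43.2, 48.2, 52.4 and 52.2 CPM in brain (log2 2.05 ± 0.11, 4.15-fold, edgeR adjusted p = 6.56e-07). Itga5, which pairs with Itgb1 to form a fibronectin receptor, had 31.4, 39.6, 60.5 and 45.3 CPM in tumour against 3.65, 5.33, 3.34 and 4.39 CPM in brain (log2 3.23 ± 0.20, 9.40-fold, edgeR adjusted p = 1.33e-06). Itgb3, a partner of Itgav and Itga2b, had 16.6, 14.9, 22.8 and 14.3 CPM against 3.83, 4.46, 4.72 and 4.29 CPM (log2 1.79 ± 0.18, edgeR adjusted p = 2.58e-05). In all 3 genes every tumour value exceeded every brain value. Increases were also called for the collagen receptors Itga1 (log2 0.62) and Itga2 (log2 2.87), for Itga6, Itga2b and Itgb5 (log2 0.60, 0.77 and 0.32), and for the leukocyte chains Itgb2, Itgal, Itgb7 and Itga4 (log2 1.12, 2.64, 1.68 and 0.62). Itga2 stood at only 1.26, 1.49, 2.16 and 1.91 CPM in tumour, so its large fold rests on few UMIs.

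Itgb8, a partner of Itgav that is found on astrocytes and activates latent TGF-beta, was the integrin with the largest fall. It had 4.72, 5.99, 12.3 and 13.6 CPM in tumour and 68.3, 66.1, 80.1 and 68.7 CPM in brain (log2 -3.25 ± 0.22, 9.50-fold, edgeR adjusted p = 1.93e-06). Itgb4, a laminin receptor chain, had 8.19, 11.3, 20.4 and 9.25 CPM against 24.02, 29.2, 41.0 and 35.1 CPM (log2 -1.64 ± 0.17, edgeR adjusted p = 3.84e-05). Itga7, another laminin receptor chain, had 5.39, 6.25, 7.72 and 9.25 CPM against 9.96, 15.3, 14.4 and 15.8 CPM (log2 -1.14 ± 0.16, edgeR adjusted p = 0.000214). Of the 4 integrin chains devoted to laminin, Itga3 was also lower (log2 -0.69 ± 0.15) and Itga6 was higher. Itga8, Itga11 and Itgam were lower as well, at log2 -1.97, -0.68 and -1.16.

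Itgam, which pairs with Itgb2 on microglia, macrophages and neutrophils, had 14.3, 12.5, 11.4 and 15.05 CPM in tumour against 25.1, 30.8, 19.8 and 30.4 CPM in brain (edgeR adjusted p = 8.15e-05). Its partner Itgb2 went up instead, with 51.5, 59.9, 53.1 and 52.1 CPM against 21.7, 29.9, 17.0 and 21.2 CPM. The Itgam call was lost (log2 -0.24) when spots under 1000 UMIs were left out and the clusters redrawn, which put the C3-rich cluster into the tumour. With the regions as drawn, the same minimum left it at log2 -1.16. Beside these, the summed level of 8 homeostatic microglia markers ran from 175 to 218 CPM in the tumour interior and from 427 to 561 CPM in far brain, that of 12 macrophage markers from 393 to 492 CPM against 216 to 309 CPM, and that of 12 T and NK cell markers from 140 to 168 CPM against 20.2 to 32.6 CPM. Their part in the levels of the leukocyte integrins was not tested.

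For 4 members that the results turn on, 250 bases upstream of a start site in the RefSeq promoter table of build GRCm38.p6 are shown. That table held 22 of the 36 members. Its start sites need not be the outer ends of the genes. Lama5 and Lamb1 are shown because they were higher in tumour than in brain and lower in TREAT than in Vehicle tumour, Itgb8 because it did the opposite on both counts, and Itgam because it marked the tissue around the tumour. Capitals mark the GC box letters GGGCGG or CCGCCC in the first 3, and the letters GAGGAA or TTCCTC, the core bound by factors of the PU.1 type, in Itgam. The windows lie at chr2:180225860-180226109 (minus strand), chr12:31265043-31265292 (plus), chr12:119238277-119238526 (minus) and chr7:128062390-128062639 (plus). The Lama5 gene is listed as ending at 180225904 and the Lamb1 gene as starting at 31265146, so both windows overlap their gene in part.
Lama5: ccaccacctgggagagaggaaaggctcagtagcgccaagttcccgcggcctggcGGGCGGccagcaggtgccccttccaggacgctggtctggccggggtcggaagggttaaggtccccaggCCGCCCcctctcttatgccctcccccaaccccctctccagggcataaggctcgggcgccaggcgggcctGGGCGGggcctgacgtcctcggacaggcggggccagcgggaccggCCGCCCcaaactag
Lamb1: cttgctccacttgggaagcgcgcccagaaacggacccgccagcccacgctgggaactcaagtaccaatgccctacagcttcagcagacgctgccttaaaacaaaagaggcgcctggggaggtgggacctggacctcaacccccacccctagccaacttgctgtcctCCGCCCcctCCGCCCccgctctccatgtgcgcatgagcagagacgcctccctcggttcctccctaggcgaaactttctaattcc
Itgb8: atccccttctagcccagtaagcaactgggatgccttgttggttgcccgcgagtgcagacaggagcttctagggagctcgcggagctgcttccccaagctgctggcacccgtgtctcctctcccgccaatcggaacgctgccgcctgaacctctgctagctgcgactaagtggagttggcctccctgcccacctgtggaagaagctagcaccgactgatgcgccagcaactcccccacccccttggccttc
Itgam: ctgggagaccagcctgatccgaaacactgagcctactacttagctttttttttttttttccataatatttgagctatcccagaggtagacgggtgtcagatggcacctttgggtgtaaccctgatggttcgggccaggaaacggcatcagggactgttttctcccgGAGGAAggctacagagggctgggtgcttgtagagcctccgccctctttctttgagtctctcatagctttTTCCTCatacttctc

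The Lama5 window held 4 GC boxes and the Lamb1 window 2, and the Itgb8 window held none. Both Lamb1 boxes lay past the listed gene start, that is, within the gene. Some windows counted below, such as those of Itgav and Itga9, lay wholly within the listed gene. Read on both strands, a GC box was present in 32.7% of 32851 upstream windows of the same length and in 8 of the 22 members. It occurred in 6 of the 10 members higher in tumour, in 2 of the 7 lower and in 0 of the 5 not called, with a median GC content of 61.4%, 58.8% and 52.0% against 52.4% over all windows. The letters GAGGAA or TTCCTC occurred in 23.3% of all windows and in 11 of the 22 members, and the Itgam window held 2 such matches. Matches were counted for each motif on its own, whatever lay beside or over them, and a match describes the letters of the window only.

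**Figure D3:**
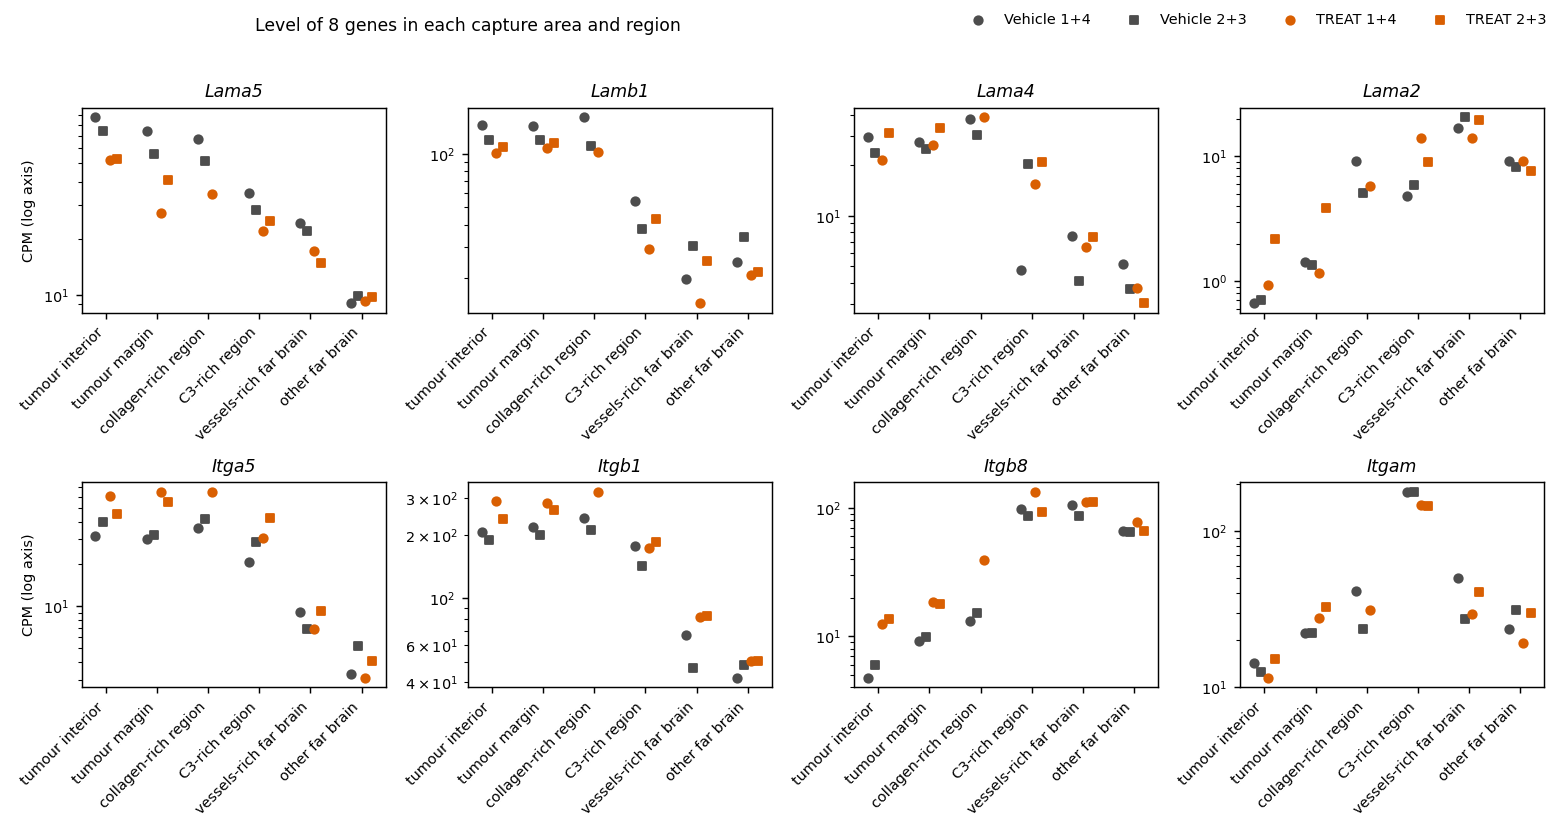
CPM (log axis) of 8 members in 6 regions, 1 point per capture area, grey for Vehicle and orange for TREAT, with circles for 1+4 and squares for 2+3. Lama5, Lama4, Lamb1, Itga5 and Itgb1 step down from tumour to brain, Lama2 and Itgb8 step up, and Itgam peaks in the C3-rich region at 146 to 180 CPM.

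The lists of related genes held changes in both directions. Of 27 integrin adaptor and signalling genes, 11 were higher and 6 lower in the tumour interior, with the actin crosslinker Flna (log2 2.84 ± 0.14) and the integrin activator Tln1 (1.49 ± 0.10) higher, and the kinase Ptk2b (-2.85 ± 0.11) and the talin Tln2 (-2.24 ± 0.13) lower. Of 20 basement membrane partners, 10 were higher and 6 lower, led by Col18a1 (2.79 ± 0.14), perlecan Hspg2 (3.11 ± 0.20) and Tinagl1 (4.38 ± 0.28) among the higher, and Fras1 (-7.88 ± 0.42) among the lower. Of 19 tested genes for other integrin ligands, 10 were higher and 4 lower, among them Tgfbi (4.15 ± 0.24), Thbs2 (2.25 ± 0.15) and fibronectin Fn1 (1.62 ± 0.12) on the higher side and Edil3 (-6.50 ± 0.16) on the lower. The median log2 folds of the 3 lists were 0.16, 0.19 and 0.74.

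At the tumour margin few members differed from the interior. Against the interior, 3 of 32 tested members were higher and 1 was lower, where 4.56% of 15383 features were higher and 4.0% lower. Itgam had 22.4, 22.2, 27.7 and 32.5 CPM in the margin and was higher there in 4 of 4 areas (log2 0.87 ± 0.11, 1.83-fold, edgeR adjusted p = 2.75e-06). Itgb2 had 61.6, 71.0, 67.9 and 79.8 CPM (log2 0.32 ± 0.07, edgeR adjusted p = 0.00386), so both chains of the pair rose towards the edge. Itgb8 had 9.23, 9.88, 18.4 and 17.9 CPM (log2 0.59 ± 0.13, edgeR adjusted p = 0.00366). Lama5 fell, with 74.0, 56.1, 27.4 and 41.0 CPM (log2 -0.46 ± 0.07, edgeR adjusted p = 7.45e-05), while Lamb1 (log2 -0.02 ± 0.05) and Itgb1 (log2 0.03 ± 0.05) did not pass.

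Margin spots lie within 2 steps of other tissue, which includes the collagen-rich region. They numbered 262, 316, 95 and 148. Without spots that were near only the collagen-rich region they numbered 99, 104, 50 and 139. With that margin, Itgam, Itgb2, Itgb8 and Lama5 kept their calls. Marker levels moved along with the margin. Microglia markers summed to 276 to 383 CPM in the margin and 175 to 218 CPM in the interior, and 10 of 11 oligodendrocyte markers and 6 of 10 astrocyte markers were higher. Their part in the margin values was not tested. Among ligands, tenascin Tnc (log2 0.87 ± 0.11) and Fn1 (0.36 ± 0.06) were higher in the margin and osteopontin Spp1 (-0.46 ± 0.07) lower, 4 ligands being higher and 2 lower of 19. Of 17 tested basement membrane partners 0 passed in edgeR, and 4 had an unadjusted p under 0.05, a count not set against that of all features. Of 26 adaptors 2 were higher. DESeq2 called 2 members, Itgb2 and Itgb8 being lost, and at a clustering resolution of 1.0 Itgb8 was lost too (log2 0.26, edgeR adjusted p = 0.373). When the clusters were redrawn from spots of at least 1000 UMIs, which put the C3-rich cluster into the tumour, 10 members were called, while with the regions as drawn that minimum gave 4.

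In the brain ring next to the tumour 5 of 29 tested members were higher than in far brain and none was lower, where 7.91% of 14482 features were higher. TREAT 1+4 had 19 ring spots and was left out, so these values rest on Vehicle 1+4, Vehicle 2+3 and TREAT 2+3, with 66, 30 and 61 spots. Itgb1 had 156, 103 and 103 CPM (log2 1.22 ± 0.20, edgeR adjusted p = 0.000326). Itgb2 had 40.8, 68.9 and 61.8 CPM (log2 1.16 ± 0.25, edgeR adjusted p = 0.00348) and Itgam 52.1, 46.0 and 87.3 CPM (log2 1.09 ± 0.24, edgeR adjusted p = 0.00418). These genes were higher in 3 of 3 areas. Lama4 also was, at 27.2, 11.5 and 6.72 CPM (log2 1.66 ± 0.50, edgeR adjusted p = 0.030), and Itga6, at 56.7, 34.5 and 56.4 CPM, was higher in 2 of 3 areas (log2 0.87 ± 0.27, edgeR adjusted p = 0.036).

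Tumour transcripts were also higher in the ring, with 22 of 24 tested proliferation markers up, and their part in the ring values was not tested. Of the related genes, 6 adaptors were higher and 2 lower of 26, 3 basement membrane partners higher and 1 lower of 18, and 5 ligands higher and 2 lower of 17. They included Tgfbi (log2 2.24 ± 0.35), Tinagl1 (2.27 ± 0.36) and Flna (1.17 ± 0.22) on the higher side and Fras1 (-2.63 ± 0.79) on the lower. The number of calls depended on the settings: 3 by DESeq2, 8 with library totals as scaling and 2 without TREAT 2+3. Lama4 was lost under DESeq2 (log2 1.64), without Vehicle 1+4 (log2 1.13) and without Vehicle 2+3 (log2 1.68). Itgam was lost without TREAT 2+3 and at a clustering resolution of 1.0. Itgb2 was lost without TREAT 2+3, and Itga6 under DESeq2 and without TREAT 2+3. Only Itgb1 kept its call in all 9 alternatives. Clusters redrawn from spots of at least 1000 UMIs placed the ring around a tumour that took in the C3-rich cluster and gave 16 calls, while with the regions as drawn that minimum gave 5.

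The C3-rich region, compared after its genes had been seen, carried the highest level of 5 of the 8 leukocyte and alpha 9 integrin chains. Against far brain 20 of 35 tested members were higher and 1 lower, where 31.1% of 15731 features were higher and 29.5% lower, and the median log2 fold was 0.80 over members and 0.07 over all features. Higher levels were called for 7 of those 8 chains. Itgam had 178, 180, 148 and 146 CPM against 19.8 to 30.8 CPM in far brain (log2 2.54 ± 0.14, 5.80-fold, edgeR adjusted p = 7.07e-07). Itgb2 had 132, 181, 161 and 162 CPM (log2 2.77 ± 0.15, 6.83-fold, edgeR adjusted p = 7.07e-07). Itgal, the alpha chain of the lymphocyte receptor for ICAM-1, had 19.1, 16.1, 16.05 and 17.4 CPM (log2 3.25 ± 0.27, edgeR adjusted p = 3.17e-06). For each of these chains the lowest C3-rich value was above the highest far brain value.

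Matrix receptors were high there too. Itgb5, a partner of Itgav and a receptor for vitronectin, had 283, 312, 367 and 299 CPM against 81.5 to 97.2 CPM in far brain (log2 1.78 ± 0.13, 3.43-fold, edgeR adjusted p = 1.61e-06). Itgb1 had 177, 143, 174 and 186 CPM (log2 1.69 ± 0.11, edgeR adjusted p = 9.54e-07) and Itga5 20.7, 28.7, 30.4 and 42.1 CPM (log2 2.83 ± 0.21, edgeR adjusted p = 1.95e-06). Itgav, with 177, 150, 170 and 178 CPM, was higher by log2 0.78 ± 0.10, although it did not pass between tumour and brain. Laminin chains called higher were Lama5, Lamc1, Lamb2, Lama4 and Lamb1, from log2 0.58 to 1.99. The one member that fell was Itga3, at 20.7, 18.5, 17.8 and 15.7 CPM against 26.6 to 41.2 CPM (log2 -1.07 ± 0.14, edgeR adjusted p = 8.71e-05). Microglia markers summed to 1338 to 2046 CPM in this region and 427 to 561 CPM in far brain, and macrophage markers to 1215 to 1429 CPM against 216 to 309 CPM. Of 25 proliferation markers 24 were also higher than in far brain. The part of these cells in the members' levels was not tested. Among related genes 13 adaptors were higher and 4 lower of 26, 13 basement membrane partners higher and 1 lower of 19, and 14 ligands higher and 1 lower of 19, with thrombospondin Thbs1 (log2 3.14 ± 0.15), Tgfbi (3.83 ± 0.18) and Fn1 (2.37 ± 0.14) among the higher ligands.

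In the collagen-rich region, also compared after its genes had been seen, 11 of 26 tested members were higher than in the tumour interior and 1 was lower, where 14.2% of 12665 features were higher and 7.52% lower. TREAT 2+3 had 3 such spots and was left out. Lama2 had 9.21, 5.08 and 5.77 CPM, above every interior value (log2 3.11 ± 0.47, 8.63-fold, edgeR adjusted p = 0.000308), and Lamb2 had 34.2, 28.9 and 28.3 CPM (log2 0.88 ± 0.16, edgeR adjusted p = 0.00107). Lamc3, at log2 2.21 ± 0.45, rose as well, and Lama5 fell with 67.8, 51.6 and 34.6 CPM (log2 -0.52 ± 0.11, edgeR adjusted p = 0.00349). Lama2 and Lamc3, both lower in tumour interior than in far brain, were thus higher in this tissue than in the interior. Of 13 basement membrane partners 6 were higher, among them Col4a1 (log2 0.80 ± 0.12) and nidogen Nid1 (1.07 ± 0.16), and of 16 ligands 10 were, among them Tnc (2.03 ± 0.16) and Vtn (2.57 ± 0.35), while 6 of 26 adaptors were higher and 1 lower.

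Among its integrins, Itgb8 had 13.2, 15.2 and 39.2 CPM (log2 1.46 ± 0.21, edgeR adjusted p = 0.000226), and Itgam 41.4, 23.4 and 31.1 CPM (log2 1.23 ± 0.18, edgeR adjusted p = 0.000198). Itga4, which binds VCAM-1 and fibronectin on leukocytes, had 25.7, 19.5 and 29.4 CPM (log2 1.25 ± 0.21, edgeR adjusted p = 0.000653), and Itgb2 88.1, 86.8 and 107 CPM (log2 0.71 ± 0.11, edgeR adjusted p = 0.000388). Meningeal and fibroblast markers summed to 910 to 1990 CPM in these 3 areas against 63.6 to 119 CPM in the interior, and B and plasma cell markers to 391 to 687 CPM against 123 to 162 CPM. Of 10 tested oligodendrocyte markers 9 were higher. Their part in these levels was not tested.

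In far brain, vessels-rich spots carried more of 6 of the 11 laminin chains. Against the other far brain spots 18 of 31 tested members were higher and none was lower, where 15.6% of 14966 features were higher. The median log2 fold was 0.59 over members and 0.00 over all features. The endothelial list that ranked the spots holds no member. Lamb2, a beta chain of vascular laminins, had 48.6, 34.3, 33.5 and 30.6 CPM in vessels-rich spots against 19.7, 19.6, 15.2 and 13.99 CPM in the others (log2 1.04 ± 0.14, 2.05-fold, edgeR adjusted p = 1.98e-06). Lamc1 had 109, 89.2, 91.4 and 94.7 CPM against 65.4, 64.9, 53.9 and 56.2 CPM (log2 0.62 ± 0.09, edgeR adjusted p = 4.31e-06). In both genes every vessels-rich value lay above every other value. Of the alpha chains, Lama1, Lama2 and Lama5 rose (log2 1.57 ± 0.30, 0.90 ± 0.21 and 0.89 ± 0.20), Lamc3 rose by log2 1.24 ± 0.24, and Lama4 did not pass (log2 0.71 ± 0.30, edgeR adjusted p = 0.0744). Lamb1, so high in tumour, had 19.7, 30.2, 14.5 and 25.1 CPM against 24.8, 34.2, 20.9 and 21.6 CPM and did not pass (edgeR adjusted p = 0.163).

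Of the integrins, Itgb4 had 30.4, 64.5, 77.7 and 72.4 CPM in vessels-rich spots against 23.6, 26.5, 38.3 and 32.8 CPM (log2 0.95 ± 0.12, edgeR adjusted p = 3.65e-07). Itga1 had 33.4, 16.5, 20.9 and 21.3 CPM against 9.54, 11.9, 9.39 and 10.4 CPM (log2 1.07 ± 0.19, edgeR adjusted p = 6.55e-05). Itgb5 had 144, 128, 139 and 125 CPM against 81.4, 94.9, 77.4 and 78.9 CPM (log2 0.64 ± 0.09, edgeR adjusted p = 1.02e-06). Itgb8 was higher as well, with 106, 86.4, 111 and 112 CPM against 66.0, 64.5, 77.9 and 66.1 CPM (log2 0.52 ± 0.09, edgeR adjusted p = 4.36e-05). Each of these chains was higher in 4 of 4 areas. The other members called were Itgb1, Itga6, Itga5, Itga9, Itgb2, Itgal, Itgam and Itgb7, from log2 0.46 to 1.38.

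Other cell types moved with these spots. Pericyte and smooth muscle markers summed to 289 to 421 CPM in vessels-rich spots against 144 to 168 CPM in the others, meningeal and fibroblast markers to 445 to 498 CPM against 116 to 160 CPM, and all 10 astrocyte and 11 oligodendrocyte markers were higher. Vessels-rich spots were shallower, with medians of 3413.5, 3938.5, 9295 and 6390.5 UMIs against 5851, 5240.5, 14855.5 and 10887 UMIs. The part of these differences in the members' values was not tested. The least endothelial spots inside the threshold and the most endothelial ones outside it had nearly equal shares, 13.357 and 13.355 endothelial UMIs per 10000 in Vehicle 1+4 and 8.750 and 8.744 in TREAT 2+3. Partners rose with the laminins: 11 of 19 basement membrane genes were higher, among them Tinagl1 (log2 1.27 ± 0.12), Hspg2 (1.17 ± 0.20) and the type IV collagen chain Col4a1 (0.71 ± 0.11), together with 14 of 19 ligands, such as Fn1 (1.38 ± 0.12) and vitronectin Vtn (1.16 ± 0.14), and 14 of 26 adaptor genes, of which 2 others were lower. Without TREAT 1+4, 12 members were called.

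**Figure D4:**
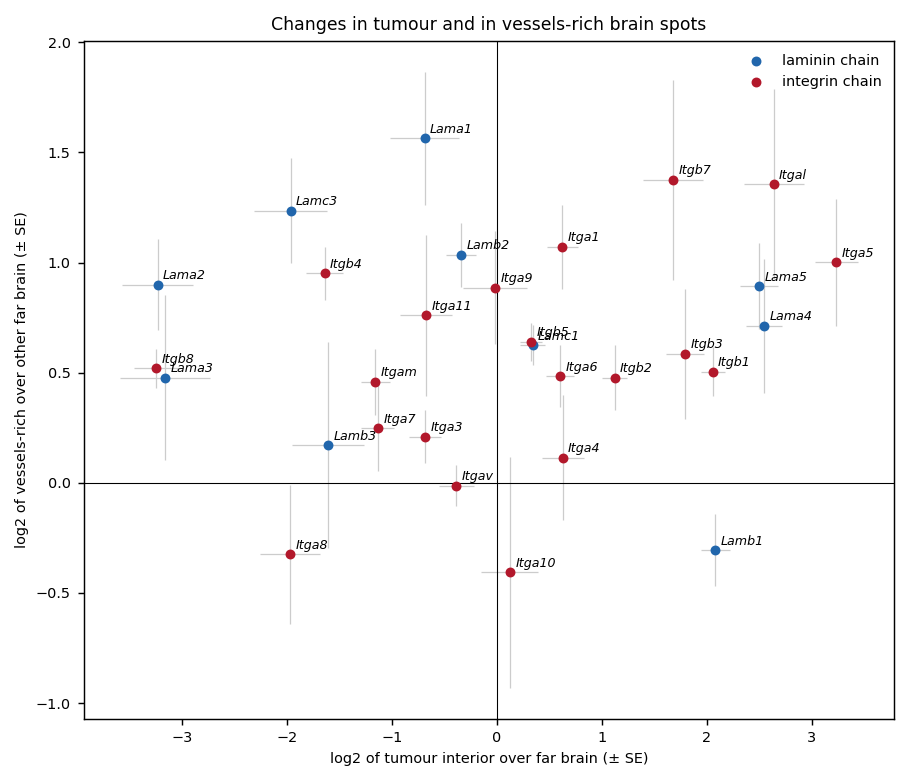
Log2 fold of tumour interior over far brain (x axis) against log2 fold of vessels-rich over other far brain (y axis), 1 point per member shown and tested in both, with bars of 1 SE, blue for laminin and red for integrin chains. Both axes share far brain spots as the reference, and Lamb1 (x 2.08) lies below 0 on the y axis while Lama4 and Lama5 lie above 0 on both.

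Inside the tumour, vessels-rich spots differed in a shorter list. The comparison was added after seeing the data, took the 10% of interior spots with the highest endothelial share in each area, and accepted areas with at least 10 such spots, of which TREAT 1+4 had 10. Of 23 tested members 4 were higher and none was lower, where 2.16% of 11964 features were higher. Itga1, a collagen and laminin receptor chain, had 31.4, 40.1, 35.5 and 30.6 CPM in vessels-rich against 16.2, 21.97, 12.6 and 19.9 CPM in other interior spots (log2 0.84 ± 0.12, 1.79-fold, edgeR adjusted p = 1.96e-07). Lamc1 had 123, 133, 67.9 and 111 CPM against 95.3, 99.8, 64.5 and 89.5 CPM (log2 0.35 ± 0.07, edgeR adjusted p = 8.40e-05). Both were higher in 4 of 4 areas. Lama4 had 43.7, 29.7, 16.2 and 47.1 CPM against 27.7, 22.9, 22.2 and 29.3 CPM and was higher in 3 of 4 areas (log2 0.52 ± 0.12, edgeR adjusted p = 0.00175), the exception being TREAT 1+4.

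Lamb1 had 167, 135, 142 and 127 CPM against 142, 118, 97.3 and 107 CPM (log2 0.24 ± 0.06, edgeR adjusted p = 0.0122). Lama5 did not pass (log2 0.16 ± 0.08, edgeR adjusted p = 0.437). Of 13 tested basement membrane partners 8 were higher, led by Col4a2 (log2 1.39 ± 0.06), Col4a1 (1.31 ± 0.06), Nid1 (1.14 ± 0.12) and Nid2 (1.12 ± 0.13). DESeq2 and the fit with no filter on low counts each called 1 member, Itga1, and lost the 3 laminin chains, and without Vehicle 2+3 the count was 2. Itga1 passed in all 7 alternatives, and Lama4, Lamc1 and Lamb1 were lost in 3, 3 and 5 of them.

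Between treated and untreated tumour, 6 of 36 members were lower in TREAT and 1 was higher, where 18.9% of 19590 features were lower and 14.1% higher, so the share of members called was below that of all features. The lower members were the laminin chains Lama5, Lamb1 and Lamc1 and the integrin alpha chains Itga3, Itgav and Itga1, and the higher one was Itgb8. The median log2 fold of TREAT over Vehicle was -0.17 over members and 0.09 over all features. This comparison is at the same time largely one of cluster 4 against cluster 0, and group and cluster cannot be told apart. The TMM scaling factors were 0.838 and 0.890 in the Vehicle areas and 1.17 and 1.15 in the TREAT areas, so the levels in this paragraph and the next are CPM after TMM scaling.

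Lama5 had 100.1 and 78.2 scaled CPM in the tumour of the Vehicle areas and 33.6 and 43.6 in that of the TREAT areas, without overlap (log2 -1.20 ± 0.19, 2.29-fold, edgeR adjusted p = 0.000159). Itga3, an alpha chain of laminin receptors, had 35.0 and 33.3 against 13.98 and 15.9 scaled CPM (log2 -1.18 ± 0.19, 2.27-fold, edgeR adjusted p = 0.00021). Lamc1 had 124 and 118 against 60.9 and 80.9 scaled CPM (log2 -0.76 ± 0.18, edgeR adjusted p = 0.00396). In these genes, and in the next ones, both TREAT areas lay on one side of both Vehicle areas. Lamb1 had 172 and 135 against 89.5 and 96.4 scaled CPM (log2 -0.72 ± 0.17, edgeR adjusted p = 0.00505), and Itgav 115 and 92.5 against 52.6 and 76.2 (log2 -0.68 ± 0.19, edgeR adjusted p = 0.0135). Itga1 had 22.2 and 26.2 against 14.5 and 18.2 scaled CPM (log2 -0.55 ± 0.20, edgeR adjusted p = 0.0435). Itgb8, low in tumour, had 7.22 and 7.80 against 13.2 and 12.8 scaled CPM (log2 0.78 ± 0.22, edgeR adjusted p = 0.0144). Groups without overlap were not particular to called members. Itgb5, with 150 and 142 against 120 and 105 scaled CPM, and Itga7, with 6.908 and 6.909 against 7.31 and 8.52, were not called. The share of all features with groups so apart was not counted. In several other members the groups overlapped, among them Itgb1 with 252 and 217 against 245 and 213 scaled CPM.

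The scaling set the balance of these calls. With library totals in place of TMM, which moved the median of all features from 0.09 to 0.51, 2 members were lower (Lama5 at log2 -0.77 and Itga3 at -0.76) and 9 higher (Itgb8, Itga5, Itgb6, Itga4, Itgad, Itga7, Itgae, Lama2 and Lama3), and Lamb1, Lamc1, Itgav and Itga1 were not called. Lama5 and Itga3 were called lower under every alternative run for this comparison. Leaving out Vehicle 1+4 brought the count from 7 to 3. The Itga1 call was lost in 7 of 12 alternatives, among them tumour interior only (log2 -0.57, edgeR adjusted p = 0.0649), with a log2 fold between -0.74 and -0.13. In unscaled CPM, endothelial markers summed to 399.8 and 418 in Vehicle and 313 and 422 in TREAT tumour, pericyte and smooth muscle markers to 95.5 and 116 against 132 and 156, and macrophage markers to 459 and 504 against 480 and 424. Oligodendrocyte markers were higher in TREAT tumour for 9 of 11, and the part of neighbouring cells in the members' values was not tested.

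Related genes also differed in tumour. Of 27 adaptor and signalling genes 15 were lower in TREAT and 1 higher, the named ones being the focal adhesion scaffolds paxillin Pxn (log2 -1.16 ± 0.18), Bcar1 (-1.69 ± 0.26) and zyxin Zyx (-1.24 ± 0.21) and the kinase Src (-1.09 ± 0.17). Of 19 basement membrane partners 5 were lower, such as Col4a5 (-1.01 ± 0.21), Col4a1 (-0.67 ± 0.18) and Sparc (-0.64 ± 0.20), and Col4a4 was higher (1.34 ± 0.42). Of 19 ligands 5 were lower, among them Thbs2 (-0.96 ± 0.19), Tgfb1 (-0.78 ± 0.16) and Adam15 (-0.92 ± 0.20), and Madcam1 was higher (1.12 ± 0.36). The median log2 folds of the lists were -0.50, -0.36 and -0.08.

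In far brain no member of 34 passed between TREAT and Vehicle, where 0.0212% of 18851 features did (4 in edgeR). DESeq2 called none either, and 7 members had an unadjusted p under 0.05, a count not set against that of all features. The smallest p-values belonged, on the lower side, to Itga6 with 32.3 and 36.9 against 25.6 and 19.5 scaled CPM (log2 -0.61 ± 0.18, edgeR adjusted p = 0.176), Lamb2 (log2 -0.55 ± 0.17) and Lamb1 (log2 -0.60 ± 0.19), and on the higher side to Itga11 (0.74 ± 0.29), Itgb4 (0.39 ± 0.16) and Itga9 (0.45 ± 0.25). Without TREAT 1+4, Itga6 was called (log2 -0.83). Of the related genes 0 passed in edgeR, with 8 of 27 adaptors, 4 of 20 basement membrane partners and 5 of 19 ligands at an unadjusted p under 0.05. Without the share of all features past that threshold, no excess can be read from these counts. Lama5, which fell in tumour, had 10.6 and 11.1 against 9.30 and 9.74 scaled CPM here. The brain pieces differed in what they covered, both between and within the groups. A cluster led by the striatal genes Penk and Ppp1r1b held 0, 4, 210 and 167 spots. One led by the hypothalamic genes Pmch and Hcrt held 12, 122, 345 and 4. In TREAT far brain 3 of 10 striatum markers were called higher. The part of coverage in these values was not tested.

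Whether the treatment difference itself differed between tumour and far brain was tested as an interaction, in which no member of 36 passed in edgeR, where 0.00998% of 20038 features did. An unadjusted p under 0.05 was reached by 7 members, a count again not set against that of all features. The smallest p-values were those of Itgb8 (log2 difference 0.89 ± 0.18, edgeR adjusted p = 0.0629), Itgav (-0.66 ± 0.14, adjusted p = 0.0714) and Lama5 (-0.91 ± 0.21, adjusted p = 0.0771), followed by Itga3 (-0.64 ± 0.23), Itga4 (0.65 ± 0.28) and Lama2 (1.09 ± 0.47). DESeq2 called 2 members, Itgav (-0.76) and Lama5 (-1.01). A difference between tumour and brain in the treatment effect was thus not shown by edgeR for any member.

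**Figure D5:**
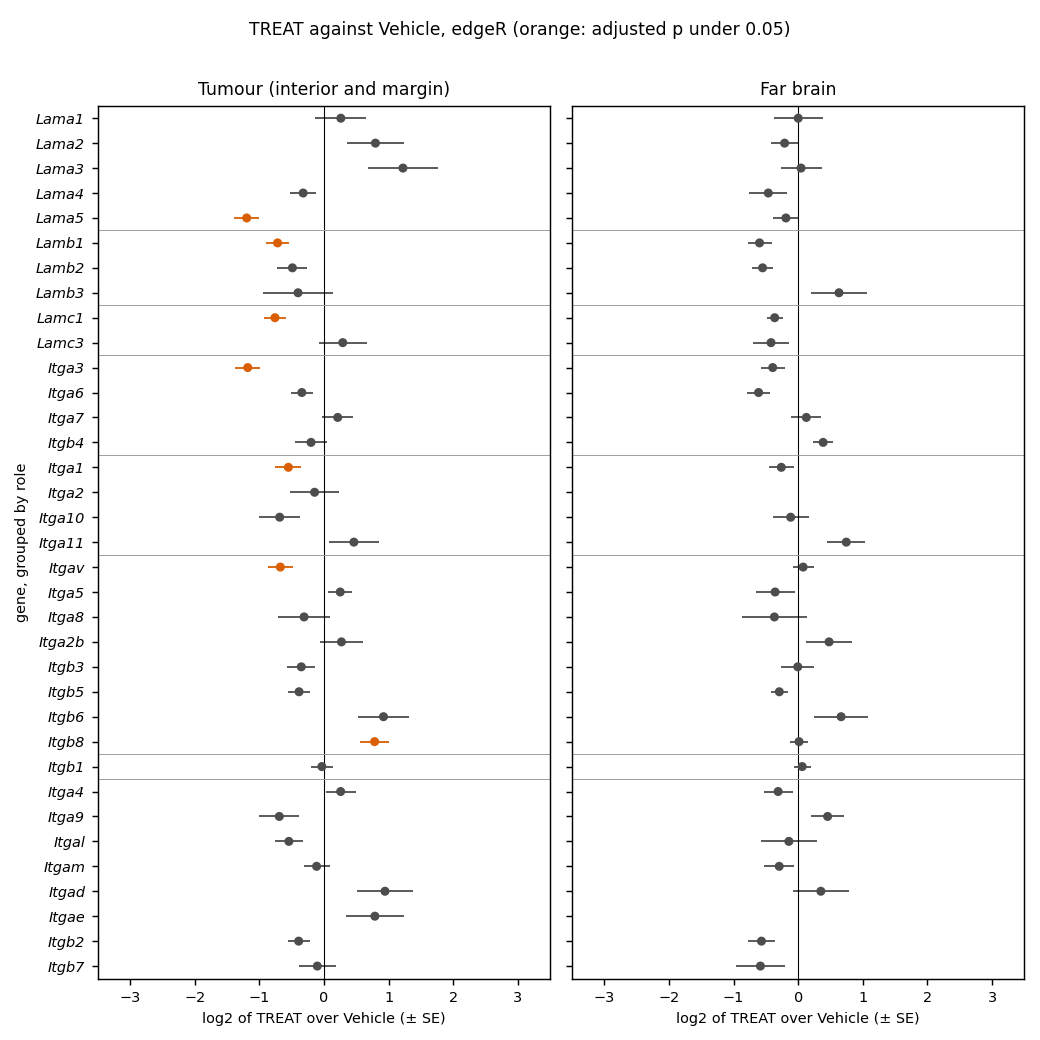
Log2 fold of TREAT over Vehicle with its standard error (x axis) for 35 members (y axis, grouped by role), in tumour on the left and in far brain on the right, orange where the adjusted p was under 0.05. Lama5 and Itga3 lie furthest to the left in tumour, at -1.20 and -1.18, and no member is orange in far brain.

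Over the whole tissue, 2 of 36 members were lower in TREAT and none was higher, where 5.67% of 20265 features were lower. Lama5 had 63.3 and 58.4 against 13.1 and 24.8 scaled CPM (log2 -1.68 ± 0.32, 3.21-fold, edgeR adjusted p = 0.0345), and Lamb1 had 115 and 105 against 29.9 and 54.9 scaled CPM (log2 -1.37 ± 0.31, edgeR adjusted p = 0.0419). Both chains were higher in tumour than in brain, and tumour spots made up 28.9% and 36.3% of the Vehicle areas but 5.91% and 19.8% of the TREAT areas. In TREAT 1+4, with the fewest tumour spots, both genes had their lowest value. Within tumour spots alone Lama5 and Lamb1 were lower too, by 2.29-fold and 1.65-fold. How far the share of tumour spots entered the whole-tissue differences was not tested. All 10 striatum markers were higher in TREAT over the whole tissue (median log2 fold 2.03), and 10 of 25 proliferation markers were lower. Related genes called lower were 3 of 27 adaptors, with Pxn at log2 -1.59 ± 0.27, 3 of 20 basement membrane partners, with Col18a1 at -1.20 ± 0.24, and 4 of 19 ligands, with Tgfb1 at -1.24 ± 0.25, and none of these lists held a higher gene. Without Vehicle 1+4 or without Vehicle 2+3 no member was called, without TREAT 1+4 Lama5 alone, and without TREAT 2+3 there were 13 calls. DESeq2 called 10, all lower. Library totals as scaling called Itgb8 higher as well (log2 1.14, edgeR adjusted p = 0.0458), beside the same 2 lower members.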

How the data were processed

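RNA was measured with the probe-based Visium assay for fixed tissue in 4 capture areas. The authors deposited UMI counts per feature and spot, and per the submitters' processing notes Space Ranger 2.1.1 with the mm10 genome was used. Tissue spots below 500 UMIs, 304 deprecated features and the off-tissue spots were left out. Clustering used scanpy 1.11.5 with 2000 variable genes, 30 principal components, 15 neighbours and leidenalg 0.10.2 at resolution 0.6, and the members and 3 lists of related genes stayed out of it. Doublets were not called, because spots are not single cells. Cluster 6 (732 spots) remained unnamed and choroid plexus was not compared.

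Counts were summed per area and region where an area had at least 20 spots and tested with edgeR 4.0.16 (quasi-likelihood, TMM scaling, low counts filtered), with Benjamini-Hochberg adjustment over all features tested. Standard errors are the log2 fold divided by the root of F and are approximate. DESeq2 1.42.0, other scalings, filters, region rules and leaving out an area were alternatives. The procedure was tested on simulated data. The members and gene lists were chosen with earlier results of these data known. Full statistics are given for up to 6 called members in each direction per comparison, by smallest p, or for the 3 nearest in each direction where none passed, and for up to 4 genes of each list. The comparisons of the C3-rich region, the collagen-rich region and the vessels-rich tumour, and the criterion that counted cluster 4 as tumour, were added after seeing the data. The labels' numbers were checked for pairing, and nothing in the sources used here says what areas with the same numbers share. Counts cover all 36 members, and 1 of them is not reported here by name or shown in the plots.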

Additional observations from a re-analysis of the deposited data

Results flagged for a closer look

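Some members had regional ratios of opposite sign in the 2 groups, that is, every Vehicle area on one side of 0 and every TREAT area on the other. The values are mean log2 ratios, and the difference is TREAT minus Vehicle. With 2 areas a group such a split is easily met.

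Between tumour interior and far brain, Itgav had a mean ratio of 0.06 in Vehicle and -0.51 in TREAT, a difference of -0.57. Itga10 differed by -0.54 (0.46 and -0.08) and Itgad by 0.81 (-0.15 and 0.65). The interaction test covered these 3 genes, over all tumour spots, and none passed in edgeR, while DESeq2 called Itgav.

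For the other ratios the difference between the groups was not tested. Between margin and interior, Lama1 differed by -0.69, Itga5 by 0.36 and Lamb1 by 0.0984. Between the C3-rich region and far brain, Lama2 differed by 1.03, Itgb4 by 0.92 and Itga10 by 0.56. Within the tumour interior, between vessels-rich and other spots, Itgal differed by 0.70 and Itgb3 by -0.40.

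Spots outside the tissue were used in no comparison and held 3.83% to 5.40% of the UMIs. The 36 members summed to 1154, 1064, 1218 and 995 CPM there in Vehicle 1+4, Vehicle 2+3, TREAT 1+4 and TREAT 2+3, against 949, 982, 774 and 863 CPM under tissue.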

How the results depend on the processing

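Of 54 named member results that passed, 37 kept their call and direction under every alternative run, 17 lost the call under at least 1, and 0 reversed. Over the whole tissue the count of members was 2, with 10 by DESeq2, 17 with the replicate block (14 lower, and Itgb8, Itga11 and Lama3 higher), and 0 to 13 when an area was left out. In tumour it was 7, with 11 under library totals and 3 to 9 without an area. In far brain it was 0, with 0 to 1 without an area, and in the interaction 0, with 2 by DESeq2. At the margin the count was 4, with 2 by DESeq2 and 10 with clusters redrawn from spots of at least 1000 UMIs. In the brain ring it was 5, with 3 by DESeq2, 8 under library totals, 16 with clusters so redrawn and 2 to 5 without an area. In vessels-rich tumour it was 4, with 1 by DESeq2, 1 without the filter on low counts and 2 to 3 without an area. Redrawing put the C3-rich cluster into the tumour, and with the regions as drawn, an alternative chosen after seeing the data, at least 1000 UMIs gave 4 and 5 calls. The cause of the other changes was not tested. A brain ring of 1 step held only 19, 8, 4 and 16 spots and could not be fitted. With a tumour margin of 1 step, Itgam, Itgb2, Itgb8 and Lama5 kept their calls. The differences between the 2 areas of a group, taken over genes, correlated between Vehicle and TREAT at 0.41 over the whole tissue, -0.045 in tumour and -0.069 in far brain, and the block gave 7 and 0 calls in tumour and far brain. Each group had 2 areas, and some members had few UMIs, such as Itgae with 130 in all.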
